A study of Homo sapiens with 9 samples.

Results

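The genes described here encode the replicative MCM helicase and the factors that license replication origins: MCM2, MCM3, MCM4, MCM5, MCM6, MCM7, MCM10, CDC6, CDT1 and GMNN. Every probe set that the array annotation assigns to 1 of these symbols and to no other was taken. This gave 21 of the 54675 probe sets on the array for the 10 genes, out of 19775 genes with a named probe set. Expression was measured on 9 arrays of U2OS, a human osteosarcoma cell line, in 3 groups of 3. One group carried a non-targeting hairpin (shControl) and the others carried one of 2 hairpins against BAP1 (shBAP1 #1 and shBAP1 #2). The BAP1 protein removes ubiquitin from histone H2A and other nuclear targets and acts as a tumour suppressor. Cells of every group were lipid-transfected with the hairpin plasmid, enriched in puromycin and arrested by a double thymidine block where G1 meets S phase, so all groups share the selection and the arrest. The cells are a selected transfected population, and the degree of BAP1 knockdown was not analysed here. The labels do not state whether replicates were separate cultures, and p-values therefore reflect only how far these arrays differ among themselves, which may be technical spread.

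MCM2 to MCM7 form a ring that unwinds DNA at the replication fork. In G1 the origin recognition complex, CDC6 and CDT1 load this ring onto origins in an inactive form, which is called licensing. Geminin, encoded by GMNN, binds CDT1 in S and G2 phase and blocks relicensing, and MCM10 acts after loading, when the helicase is switched on. Transcription of these genes rises towards S phase under E2F factors, so their level depends on where cells stand in the cycle. In bulk RNA, fewer cells in a given phase and less RNA per cell cannot be told apart.

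The promoters of these genes are shown as background, and no link between them and the changes in expression was tested. Those in RefSeq (GRCh38.p14, from 250 bases before to 50 bases after each annotated start) were searched for E2F words. The table held 11 promoters for 8 of the genes, and none was matched for MCM4 and MCM5. The words TTTCCCGC, TTTGGCGC, TTTGCCGC and TTTCGCGC were counted on both strands, and matches that overlap were joined into 1 site. At least 1 of the words stood in 7 of the 11 promoters, belonging to 7 of the 8 genes, against 3.31% of all 35116 promoters. MCM6 and MCM3, the helicase genes whose brightest probe sets fell most and least with shBAP1 #2, are shown up to the start with whole words in capitals. The MCM6 stretch (chr2:135876444-135876693, minus strand) holds the same 12 letters at 152 and at 90 bases before the start, each a pair of overlapping words on opposite strands. In the MCM3 stretch (chr6:52284743-52284992, minus strand) 1 word begins 174 bases before the start. A second begins 4 bases before it and runs past the start, so it is cut off by the end of the stretch and is not in capitals. Both promoters thus hold 2 sites.
MCM6: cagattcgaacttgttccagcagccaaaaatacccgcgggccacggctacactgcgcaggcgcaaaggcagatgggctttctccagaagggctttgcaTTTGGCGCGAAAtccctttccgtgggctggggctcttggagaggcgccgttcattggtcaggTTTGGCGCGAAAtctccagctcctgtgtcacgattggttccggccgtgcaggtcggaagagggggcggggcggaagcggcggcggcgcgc
MCM3: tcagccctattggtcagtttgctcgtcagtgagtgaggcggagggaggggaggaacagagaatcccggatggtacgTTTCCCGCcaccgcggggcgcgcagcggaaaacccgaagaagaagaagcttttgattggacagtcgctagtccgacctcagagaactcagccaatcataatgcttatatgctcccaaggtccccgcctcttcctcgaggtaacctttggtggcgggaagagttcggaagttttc

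For 5 further genes, 30 bases around a word show where it stands. The windows are chr3:127598402-127598431 (plus) for MCM2, chr7:100101388-100101417 (minus) for MCM7, chr17:40287875-40287904 (plus) for CDC6, chr16:88803743-88803772 (plus) for CDT1 and chr6:24775322-24775351 (plus) for GMNN. The words of MCM2 and CDC6 lie just after the start, and those shown for MCM7, CDT1 and GMNN before it, at 9, 35 and 80 bases. The same MCM7 promoter holds another word at 187 bases before its start. The other 2 MCM7 promoters, the other GMNN promoter and the MCM10 promoter hold none.
MCM2: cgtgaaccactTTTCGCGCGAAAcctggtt
MCM7: ggggggcgacgTTTCGCGCcaatttcggtt
CDC6: ggccattcggaTTTGGCGCgagcgcggctg
CDT1: ccagggcgcccGCGGGAAAtttggcgggaa
GMNN: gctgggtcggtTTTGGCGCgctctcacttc

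Of the other words fixed with the gene lists, CCAAT stood in 8 of the 11 promoters (34.6% of all promoters) and GGGCGG in 9 (45.0%). TTTGAA or TTCGAA, words of a cell cycle repressor element (CHR), stood in 1 (16.4%), and the YY1 core GCCATNTT in 0 (6.58%). These matches describe letters in the windows and do not show binding.

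**Figure D1:**
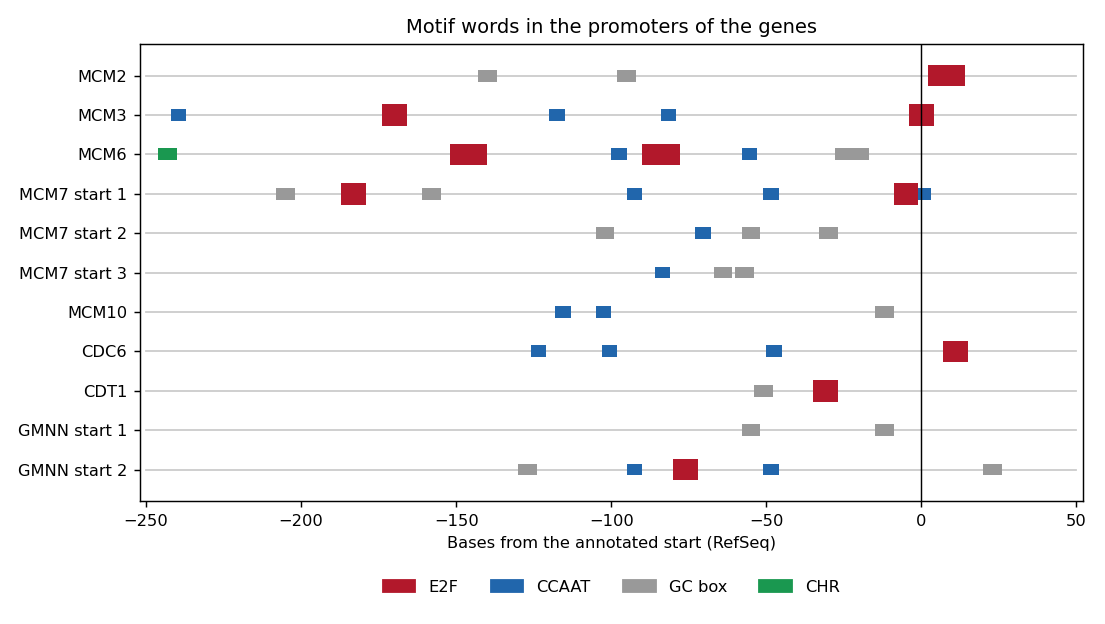
Each line is 1 RefSeq promoter of the genes, drawn from 250 bases before to 50 bases after its annotated start (x axis, bases; 0 is the start), with boxes where a word stands. E2F boxes appear in 7 of 11 promoters, and MCM6 has its pair at 152 and 90 bases before the start.

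All 10 genes were called lower with shBAP1 #2 and 7 were called lower with shBAP1 #1, where the estimated changes of all 10 were negative. In the comparison of shBAP1 #2 with shControl the log2 changes ran from -2.04 for MCM6 to -0.68 for MCM3, with a median of -1.02. All 10 genes passed the threshold (adjusted p below 0.05 in limma over 19775 genes), where 16.5% of all genes were called lower. With shBAP1 #1 the changes ran from -1.10 for CDC6 to -0.23 for MCM7, with a median of -0.65, and 7 of 10 genes passed, against 12.6% of all genes. The median over all genes was 0.01 with shBAP1 #1 and 0.02 with shBAP1 #2. The 7 genes that passed with both hairpins compare with 5.49% of all genes lower with both. All shBAP1 #2 arrays lay below all controls for 10 of 10 genes (20.1% of all genes), and all shBAP1 #1 arrays for 7 of 10 (18.7%). These comparisons share their 3 control arrays. The 10 genes were taken up with earlier results of these data known, so the counts describe them and are not an independent test of the group.

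**Figure D2:**
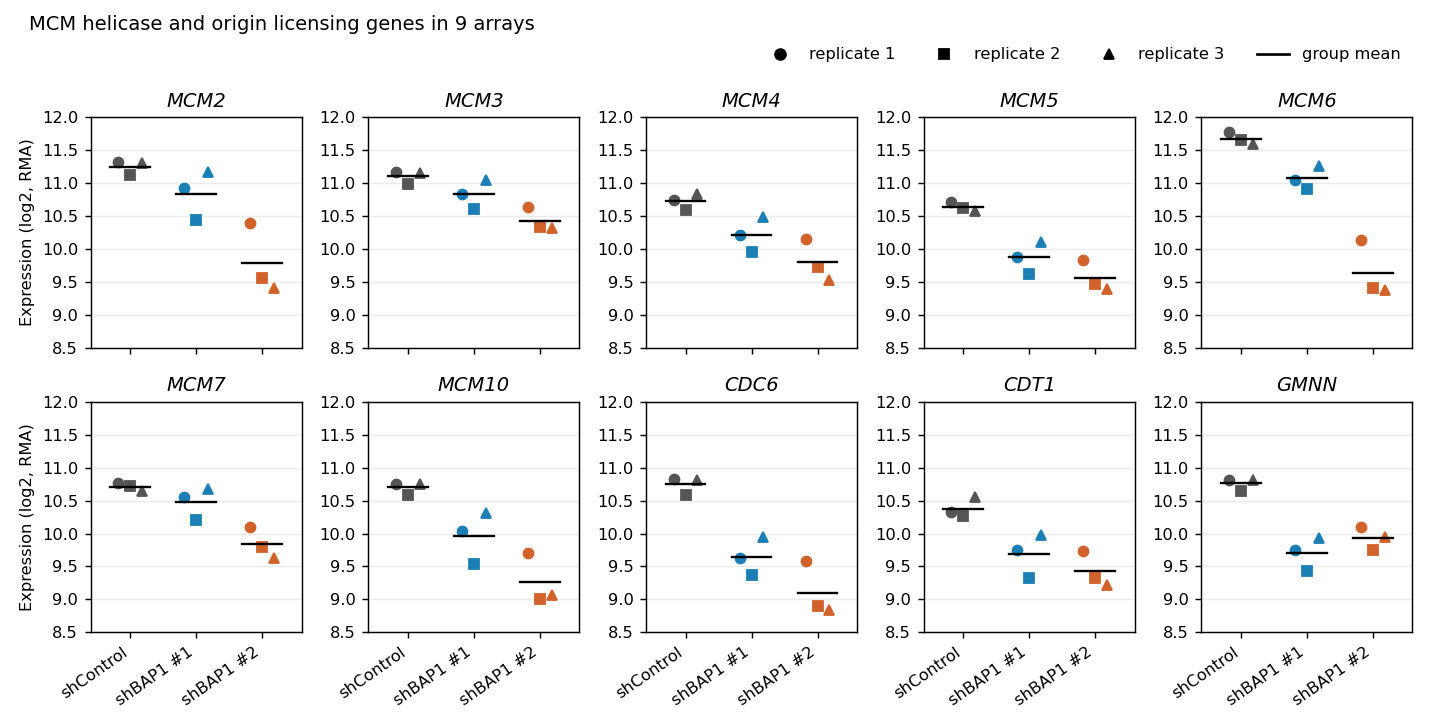
Log2 expression (RMA) of each gene in the 9 arrays, by group on the x axis, with 1 symbol shape per replicate and a bar at the group mean of 3 arrays. All shBAP1 #2 arrays lie below all controls for the 10 genes, while MCM2, MCM3 and MCM7 overlap between shControl and shBAP1 #1.

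Among the ring subunits, MCM6 showed the largest change with shBAP1 #2 when its brightest probe set stood for it. Its control arrays read 11.78, 11.65 and 11.60 on the log2 scale, shBAP1 #1 read 11.05, 10.91 and 11.26, and shBAP1 #2 read 10.14, 9.40 and 9.38. The 3 groups did not overlap, and replicate 1 of shBAP1 #2 stood apart from its fellows towards the controls. The change was -0.60 ± 0.18 (SE, n = 3) with shBAP1 #1 (adjusted p = 0.0304) and -2.04 ± 0.18 with shBAP1 #2 (adjusted p = 2.3e-05), the latter a level of 24.4% of control. Each SE here and below is limma's moderated SE of a difference, with the spread pooled over all 9 arrays. It is the same for every comparison of a gene, and n is the number of arrays per group. The hairpins differed from each other by -1.43 ± 0.18 (adjusted p = 0.000129). With the mean of its 2 probe sets, of which 1 is dim, the MCM6 change with shBAP1 #2 was -1.18, smaller than the -1.46 of MCM2.

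MCM2, whose product also carries a histone-binding tail, went from 11.32, 11.12 and 11.30 in the controls to 10.39, 9.56 and 9.40 with shBAP1 #2. The shBAP1 #1 arrays, at 10.92, 10.44 and 11.17, overlapped the controls through replicate 3. Its change of -1.46 ± 0.24 (SE, n = 3) with shBAP1 #2 was called (adjusted p = 0.000887), whereas -0.40 ± 0.24 with shBAP1 #1 was not (adjusted p = 0.288). In a fit of shControl and shBAP1 #1 alone with the replicate number as a block, added after the data were seen, the shBAP1 #1 change was called (adjusted p = 0.0295). The difference between the hairpins was itself called, at -1.06 (adjusted p = 0.00576). MCM7 showed the same division. Its 2 probe sets changed by -0.23 each with shBAP1 #1, neither passing, and by -0.86 and -0.81 with shBAP1 #2, both passing. MCM7 read 10.77, 10.72 and 10.64 in the controls, 10.56, 10.20 and 10.68 with shBAP1 #1 and 10.10, 9.80 and 9.63 with shBAP1 #2, and the hairpins differed by -0.63 (adjusted p = 0.00406).

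By brightest probe set, MCM5 was the ring subunit with the smallest difference between the hairpins. Control arrays read 10.71, 10.63 and 10.57, shBAP1 #1 arrays 9.88, 9.62 and 10.11, and shBAP1 #2 arrays 9.83, 9.47 and 9.39. The shBAP1 groups both lay below all controls and overlapped each other. The changes were -0.77 ± 0.14 (SE, n = 3; adjusted p = 0.00183) and -1.08 ± 0.14 (adjusted p = 0.000164), and their difference of -0.31 ± 0.14 was not called (adjusted p = 0.111). It was called with array weights (adjusted p = 0.0282) and without shBAP1 #1 replicate 2 or shBAP1 #2 replicate 1. With all probe sets of a gene averaged, the hairpin difference was -0.27 for both MCM5 and MCM4.

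MCM4 and MCM3 showed smaller changes. MCM4 read 10.75, 10.59 and 10.84 in the controls, 10.21, 9.96 and 10.48 with shBAP1 #1 and 10.15, 9.72 and 9.53 with shBAP1 #2. It changed by -0.51 (adjusted p = 0.042) and -0.92 (adjusted p = 0.00132), the first close to the threshold. MCM3 read 11.17, 10.99 and 11.16 in the controls, 10.83, 10.61 and 11.05 with shBAP1 #1, and 10.64, 10.34 and 10.32 with shBAP1 #2. Its change of -0.28 with shBAP1 #1 did not pass (adjusted p = 0.133) but did in the blocked fit of these 2 groups (adjusted p = 0.0355), and shBAP1 #2 lowered it to 62.5% of control (-0.68, adjusted p = 0.00139). Of the subunits MCM2 to MCM7, 3 of 6 were thus called lower with shBAP1 #1 and 6 of 6 with shBAP1 #2. The shares of all genes were 12.6% and 16.5%, and the median changes of the subunits were -0.46 and -1.0.

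The loading factors fell with both hairpins. CDC6, the ATPase that joins the origin recognition complex and recruits CDT1, read 10.83, 10.59 and 10.82 in the controls. It read 9.63, 9.37 and 9.94 with shBAP1 #1 and 9.58, 8.89 and 8.83 with shBAP1 #2, so every shBAP1 array lay below every control. The changes were -1.10 ± 0.20 (SE, n = 3; adjusted p = 0.00189) and -1.65 ± 0.20 (adjusted p = 0.000116), or 46.6% and 31.9% of control. The second CDC6 probe set gave -1.13 and -1.53.

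CDT1, which brings the MCM ring to the origin, read 10.32, 10.27 and 10.55 in the controls, 9.75, 9.32 and 9.98 with shBAP1 #1 and 9.73, 9.32 and 9.22 with shBAP1 #2. It fell by 0.69 and 0.95 on the log2 scale (adjusted p = 0.013 and 0.00153). Its second probe set changed by -0.81 and -1.07. The brighter CDT1 probe set has an identifier ending in x, given to sets with probes shared by unrelated transcripts. MCM10, the helicase activation factor, read 10.76, 10.58 and 10.76 in the controls, 10.04, 9.54 and 10.31 with shBAP1 #1, and 9.71, 9.0 and 9.07 with shBAP1 #2. Its changes were -0.73 (adjusted p = 0.0252) and -1.44 (adjusted p = 0.000395), and the hairpins differed by -0.71 (adjusted p = 0.0226).

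GMNN, the CDT1 inhibitor, was the 1 gene of the 10 whose estimated fall was larger with shBAP1 #1. Controls read 10.81, 10.65 and 10.82, shBAP1 #1 read 9.75, 9.43 and 9.93, and shBAP1 #2 read 10.10, 9.75 and 9.95. The changes of -1.06 ± 0.13 (SE, n = 3; adjusted p = 0.000172) and -0.83 ± 0.13 (adjusted p = 0.000596) both passed. The hairpin groups overlapped, and their difference of 0.23 ± 0.13 was not called (adjusted p = 0.215). Over the 9 arrays GMNN correlated with the mean of the other members at r = 0.742, where the other 9 genes gave 0.929 to 0.997. These correlations are a description over arrays that share the 3 groups.

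The hairpins were compared directly for each gene. Relative to shBAP1 #1, shBAP1 #2 lowered 5 of 10 genes (MCM2, MCM3, MCM6, MCM7 and MCM10) and raised 0, where 17.6% of all genes were lower and 17.1% higher. In 3 of the 10, MCM2, MCM6 and MCM7, every shBAP1 #2 array lay below every shBAP1 #1 array, against 21.8% of all genes. CDC6 came close, at -0.55 (adjusted p = 0.0522), and was called in 5 of 8 other settings. Among MCM2 to MCM7, levels with shBAP1 #2 ran from 24.4% of control for MCM6 to 62.5% for MCM3. With all probe sets of a gene averaged, the extremes were MCM2 at -1.46 and MCM4 at -0.54 on the log2 scale, and the hairpin difference of MCM10 was no longer called (adjusted p = 0.093).

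Calls with shBAP1 #1 were less stable than those with shBAP1 #2. All 10 calls with shBAP1 #2 were made in each of the 8 other settings and in each of 9 fits that left out 1 array. With shBAP1 #1 the same was true of MCM5, CDC6 and GMNN. The count of 7 became 3 without shControl replicate 3, and 4 without shControl replicate 1, shBAP1 #1 replicate 1 or shBAP1 #1 replicate 2. The share of all genes lower also dropped in these fits, from 12.6% to 10%, 9.81%, 9.5% and 10.4% in that order. MCM4 lost its call in 6 of the 9 fits, MCM6 in 5, MCM10 in 4 and CDT1 in 1, with adjusted p up to 0.154 for MCM4. The main fits pool the spread of all 3 groups, and the shBAP1 #2 arrays spread more than the controls. With only shControl and shBAP1 #1 fitted, adjusted p was 0.00278 for MCM6 and 0.0222 for MCM4, and also lower than in the main fit for MCM10 and CDC6. For MCM5, CDT1 and GMNN it was higher. Of the hairpin differences, those of MCM2, MCM6 and MCM7 passed in all of these 8 settings and 9 fits. The difference of MCM3 failed in 4 of the 9 fits without 1 array and that of MCM10 in 4. Neither was called without shBAP1 #1 replicate 1, shBAP1 #1 replicate 3, shBAP1 #2 replicate 2 or shBAP1 #2 replicate 3. The count of 5 became 3 when any 1 of these 4 arrays was dropped, where 14.8% to 16.1% of all genes were lower, against 17.6%. It became 8 without shBAP1 #1 replicate 2 (16.1% of all genes) or shBAP1 #2 replicate 1 (18.3%).

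Probe sets of 1 gene mostly ran in parallel. In the fit over all 54675 probe sets, 11 of the 21 were lower with shBAP1 #1 (background 8.76%), 20 with shBAP1 #2 (11.5%), and 7 were lower with shBAP1 #2 than with shBAP1 #1 (12.4%). Of 5 MCM4 probe sets, 4 were lower with shBAP1 #2, by 0.54 to 0.92, and correlated with each other over the 9 arrays at 0.907 to 0.997. With shBAP1 #1 their changes ran from -0.51 to -0.19, and 1 of them passed in that fit (212142_at, -0.48, adjusted p = 0.0361). The fifth, 242479_s_at, correlated with them at -0.65 to -0.81 and changed by 0.01 and 0.14, neither called. Its arrays read 5.12 to 5.44, and its mean of 5.33 lay below the median mean of all probe sets (5.44), a range that background may limit. All shBAP1 #2 arrays of this probe set lay above all controls and all shBAP1 #1 arrays. A dim MCM6 probe set, 238977_at, read 3.03 to 3.44 and changed by -0.02 and -0.31, the latter called. The calls of MCM4 and MCM6 with shBAP1 #1 were lost when all probe sets of a gene were averaged, at -0.28 (adjusted p = 0.119) and -0.31 (adjusted p = 0.0674).

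**Figure D3:**
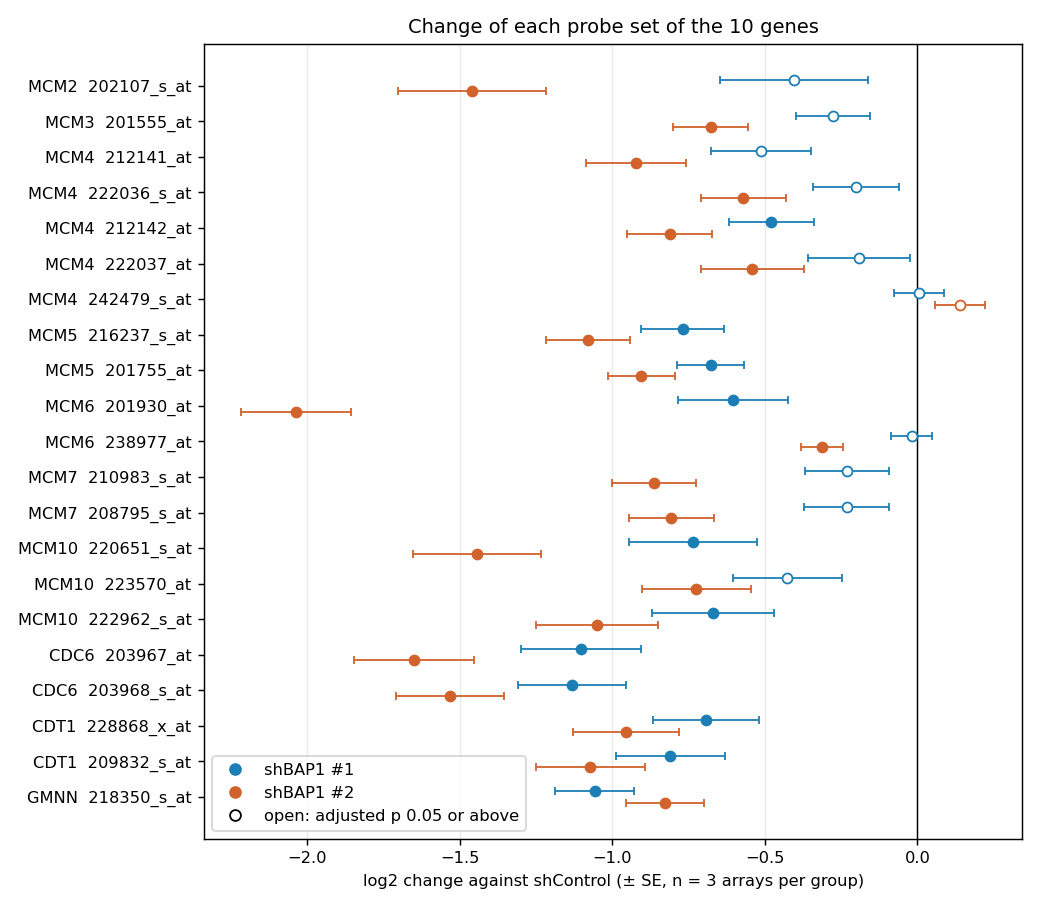
Log2 change against shControl for each of the 21 probe sets (x axis, ± moderated SE with pooled spread, n = 3 arrays per group). Filled points mark an adjusted p over all probe sets below 0.05. With shBAP1 #2, 20 of 21 points are filled and lie left of 0, and the exception is the dim MCM4 probe set 242479_s_at.

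The other genes of origin licensing and firing were taken from lists fixed with the design. Of the 6 measured genes of the origin recognition complex, which marks origins, 5 were lower with each hairpin and 4 with both. ORC1 changed by -0.63 and -1.09, ORC5 by -0.59 and -0.42 and ORC3 by -0.43 and -0.54. All 15 helicase activation genes were lower with shBAP1 #2 and 10 with both hairpins. Of all genes, 12.6% were lower with shBAP1 #1, 16.5% with shBAP1 #2 and 5.49% with both. GINS4, part of the active helicase, changed by -1.38 and -2.22, WDHD1, which couples the helicase to polymerase alpha, by -1.41 and -1.92, and the polymerase epsilon subunit gene POLE2 by -1.33 and -1.63. The medians were -0.62 and -0.92 for this list and -0.47 and -0.48 for origin recognition, against -0.65 and -1.02 for the 10 genes. The count of 4 origin recognition genes became 2 without shControl replicate 1 or shBAP1 #1 replicate 1.

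Among 14 measured genes that control licensing or bind MCM proteins, 6 were lower with both and 0 higher, against 5.49% and 6.22% of all genes. SKP2, a ubiquitin ligase subunit that recognises CDT1 among other substrates, changed by -1.24 and -1.84. MCMBP, an MCM-binding protein, changed by -1.06 and -1.31, and the deubiquitinase gene USP37 by -0.88 and -1.23. KAT7, an acetyltransferase that acts with CDT1 in licensing, was called in opposite directions, at 0.25 and -0.21, and its hairpin difference of -0.47 was called (adjusted p = 0.000486). E2F factors, their partners, pocket proteins and E cyclins went different ways. Of 19, 4 were lower and 2 higher with both, and 2 were called in opposite directions, against 3.44% of all genes. CCNE2, the cyclin E2 gene, changed by -2.46 and -2.51, E2F5, a factor counted among the repressive E2Fs, rose by 1.07 and 2.00, and the pocket protein gene RBL1 changed by -1.19 and -0.91. E2F1 fell by 0.45 and 0.70.

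Markers of G2 and mitosis moved with the same arrays. Of 20 markers, 4 were lower and 1 higher with shBAP1 #1, and 18 lower and 0 higher with shBAP1 #2, with medians of -0.25 and -1.19. Of all genes, 12.6% were lower and 13.0% higher with shBAP1 #1, and 16.5% lower and 16.9% higher with shBAP1 #2. The median marker difference from the control mean was -0.25, -0.49 and -0.14 in the shBAP1 #1 arrays and -0.61, -1.53 and -1.44 in the shBAP1 #2 arrays. For the 10 genes it was -0.63, -0.91 and -0.39, and -0.74, -1.12 and -1.22. The mean log2 level over the markers was 9.72 to 9.87 in the controls, 9.29 to 9.62 with shBAP1 #1 and 8.33 to 9.17 with shBAP1 #2. In both measures replicate 2 was the lowest array and replicate 3 the highest with shBAP1 #1, and replicate 1 the highest with shBAP1 #2. The part of cell cycle position in the changes of the 10 genes was not tested.

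**Figure D4:**
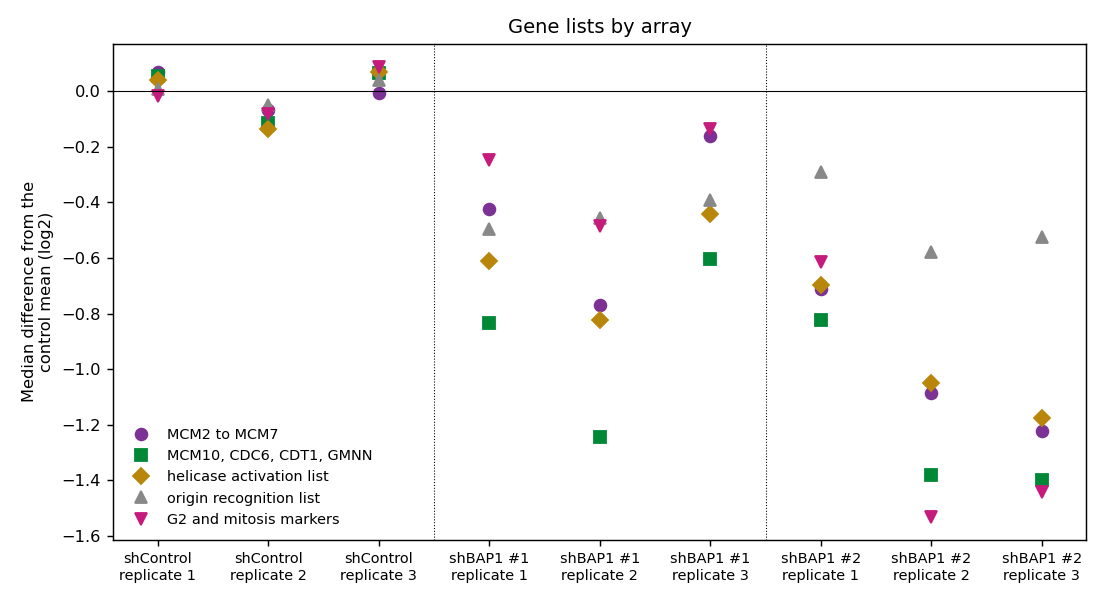
Median log2 difference of each gene list from its control mean (y axis) in each of the 9 arrays (x axis), 1 symbol per list. MCM2 to MCM7 lie at -0.16 to -0.77 with shBAP1 #1 and at -0.71 to -1.22 with shBAP1 #2, and the G2 and mitosis markers spread from -0.14 to -1.53 over the same arrays.

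Genes most like the mean of the 10 genes over the 9 arrays were sought among 12738 others with a mean at or above 5.44. PRIM1, the DNA primase subunit, and FEN1, the flap endonuclease of lagging strand synthesis, reached r = 0.996. They were followed by FBL, a nucleolar methyltransferase gene (0.995), the mismatch repair gene MSH6 (0.994), and CDK1, ESCO2, DSN1 and OIP5 (0.992 each). PRIM1 changed by -0.88 and -1.49, and FEN1 by -0.58 and -1.07. At the other end stood LRRC41 (-0.992), ARMCX1 (-0.988), DOK5 and PLEKHM1 (-0.986 each). LRRC41 changed by 0.63 and 1.08. These correlations follow the group means and are a description.

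Across the series, arrays of 1 group correlated at 0.995 to 0.997 and arrays of different groups at 0.977 to 0.990. The difference between 3' and 5' actin probe sets, a sign of RNA integrity, was 0.47 to 0.51 in the controls and 0.39 to 0.46 in the shBAP1 arrays. It was lower in every shBAP1 array than in any control, and the shBAP1 groups overlapped. Its part in the changes of the 10 genes was not tested. The same difference for GAPDH was -0.06 to -0.02 over all arrays, with the 3 groups overlapping. The mesenchymal markers VIM (14.1), SPARC (12.7) and COL1A1 (11.6) were bright on average, whereas TWIST1 (3.25), COL1A2 (4.53) and ALPL (4.86) lay below 5.44. Of the 8 markers on this list, 1 was lower and 3 higher with shBAP1 #1, and 0 lower and 2 higher with shBAP1 #2. The shares of all genes were 12.6% lower and 13.0% higher with shBAP1 #1, and 16.5% and 16.9% with shBAP1 #2. RUNX2, a bone transcription factor gene, changed by 1.20 and 0.03, COL1A1 by 0.99 and -0.10, SPARC by 0.35 and 0.01 and ALPL by 0.24 and 1.18. SPP1, the osteopontin gene, fell by 2.54 with shBAP1 #1 and rose by 1.93 with shBAP1 #2. The part of this list in the changes of the 10 genes was not tested. Over 5 blood markers the mean level was 5.62 to 5.73 in the controls, 5.57 to 5.64 with shBAP1 #1 and 5.54 to 5.63 with shBAP1 #2. Of these, 1 was lower with shBAP1 #1, 2 with shBAP1 #2 and 0 higher. CD3D, at 7.97 on average, was called lower with both, at -0.51 and -0.40. Over 5 epithelial markers the mean level was 5.18 to 5.38, 4.89 to 5.07 and 4.97 to 5.15, lower in every shBAP1 array than in any control. Of these, 2 were lower with shBAP1 #1, 1 with shBAP1 #2 and 0 higher, with EPCAM lower with both. The part of these 2 lists in the changes of the 10 genes was not tested.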

How the data were processed

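Expression of U2OS cells was measured on 9 oligonucleotide arrays. The deposited values are log2 expression values that the authors computed with RMA (robust multi-array average), as the submitters' processing notes name it, and no version is given in the sources used here. RMA forces the same distribution on every array and compresses changes of dim probe sets. For arrays, their number limits the precision.

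Of 54675 probe sets, 41097 had 1 gene symbol in the platform annotation, 1801 several and 11777 none. The probe set with the highest mean stood for each of 19775 genes. limma 3.58.1 in R 4.3.3 was fitted over all 9 arrays (lmFit, eBayes, two-sided, no covariates, 6 residual and 4.33 prior degrees of freedom), and over all probe sets. Calls had a Benjamini-Hochberg adjusted p below 0.05. The fit was also run on simulated independent normal values that gave a gene the same spread in all groups. The groups here differ in spread, so that run does not check these calls. Percent of control is 2 to the power of the log2 change. Figures used matplotlib 3.10.9.

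Members, lists and tests were chosen with earlier results of these data known. All members were named, plus the 3 genes per pathway list with the largest mean change among those called the same way with both hairpins, and the 8 genes most like and 4 least like the members' mean. KAT7, E2F1, CDC6 at the threshold, the mesenchymal markers and the G2 and mitosis list were described after their values were seen.

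Replicate numbers occur in every group. Deviations of same-numbered arrays correlated at 0.113 to 0.216 between shControl and shBAP1 #1 (-0.22 to 0.039 for different numbers), at -0.105 to 0.181 between shControl and shBAP1 #2 and at -0.21 to 0.0381 between the hairpins. The main fits used no pairs. For the first comparison alone the numbers looked like pairs, by this check and not by the labels. A blocked fit of its 2 groups was therefore added after the data were seen. Alternatives were a replicate block over all groups, averaged probe sets, cyclic loess, equal medians, no dim genes, another prior, 2-group fits, array weights and leaving out each array.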

Additional observations from a re-analysis of the deposited data

Results flagged for a closer look

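For 5 of the 10 genes the effect of the hairpins differed by a test of the difference itself (limma, adjusted p below 0.05). shBAP1 #2 was lower than shBAP1 #1 by -1.06 for MCM2, -0.40 for MCM3, -1.43 for MCM6, -0.63 for MCM7 and -0.71 for MCM10 on the log2 scale. Those of MCM3 and MCM10 each failed in 4 of the 9 fits without 1 array. Of the other genes named from the pathway lists, GINS4 differed by -0.84 (adjusted p = 0.0413), KAT7 by -0.47 (adjusted p = 0.000486) and E2F5 by 0.93 (adjusted p = 0.000466). Of the mesenchymal markers, RUNX2 differed by -1.17, COL1A1 by -1.10, SPARC by -0.34, VIM by -0.18, ALPL by 0.94 and SPP1 by 4.47. No test of single outlying arrays was made, with 3 arrays in each group.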

How the results depend on the processing

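No gene of the 10 changed direction in any comparison under any of the 8 other settings or the 9 fits without 1 array. With the replicate number as a block, 7 genes were lower with shBAP1 #1, 10 with shBAP1 #2, 7 with both, and 6 with shBAP1 #2 against shBAP1 #1, where CDC6 was gained (adjusted p = 0.0306). In the block fit of all 3 groups no other call among the 10 genes changed. Of all genes, that fit called 12.4% lower with shBAP1 #1, 16.4% with shBAP1 #2 and 17.4% for the hairpin difference. In the blocked fit of shControl and shBAP1 #1 alone, added after the data were seen, 9 genes and 14 probe sets were lower with shBAP1 #1, with MCM2 and MCM3 gained. There 14.5% of all genes were lower, against 12.6% in the main fit. The count of genes lower with shBAP1 #2 than with shBAP1 #1 was 3 when only the 2 groups compared were fitted and 8 with array weights, against 5. The shares of all genes were 16.5% and 19.5%, against 17.6%. The probe set count was 12 with array weights, against 7. The cause of these shifts was not tested. Leaving out 1 array gave 3 to 8 genes lower with shBAP1 #1, 3 to 8 lower with both, and 3 to 8 for the hairpin difference. Of all genes, 9.5% to 13.8% were then lower with shBAP1 #1 and 14.8% to 18.3% for the hairpin difference. For probe sets it gave 6 to 12 with shBAP1 #1, 17 to 20 with shBAP1 #2 and 5 to 14 for the hairpin difference. Without dim genes, fewer genes were tested and 19.7% and 25.1% of them were lower with shBAP1 #1 and #2. Markers of G2 and mitosis lower with both numbered 4, but 7 when only the 2 groups compared were fitted and 8 without shBAP1 #2 replicate 1. With 3 arrays a group, signal near background may limit the 2 dim probe sets of MCM4 and MCM6.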

Other observations

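The log2 ratio of CDT1 to its inhibitor GMNN within each array was looked at after their values were seen. It was -0.50, -0.38 and -0.27 in the controls, 0.00, -0.11 and 0.05 with shBAP1 #1, and -0.37, -0.44 and -0.73 with shBAP1 #2. The shBAP1 #1 arrays lay above all others. With the second CDT1 probe set the ratio was -2.85, -2.86 and -2.65 in the controls and -2.63, -2.55 and -2.44 with shBAP1 #1. These groups again did not overlap, but their nearest arrays, at -2.65 and -2.63, almost touched. With shBAP1 #2 the ratio was -2.88, -2.89 and -3.33, below all controls, whereas with the first probe set shBAP1 #2 overlapped the controls. An exact permutation test with 3 arrays a group cannot give p below 0.1, so it cannot call a shift at 0.05. Against shControl, p was at this floor of 0.1 for shBAP1 #1 with either CDT1 probe set. With shBAP1 #2 it was 0.5 with the first probe set and 0.1 with the second. The size of each ratio depends on the probe sets, and only its shift between groups can be read: 0.36 and 0.25 with shBAP1 #1 and -0.13 and -0.24 with shBAP1 #2.

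Within the ring, the log2 ratio of MCM6 to MCM3 was 0.60, 0.66 and 0.44 in the controls, 0.22, 0.30 and 0.21 with shBAP1 #1, and -0.50, -0.94 and -0.94 with shBAP1 #2. This pair was chosen as the extremes of the changes with shBAP1 #2 by brightest probe set, so the ratio is a description.

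The 10 genes also varied together within groups. Replicate 2 of shBAP1 #1 was the lowest and replicate 3 the highest of its group for 10 of 10 genes, and replicate 1 of shBAP1 #2 was the highest of its group for 10 of 10. The standard deviation of a gene was 0.064 to 0.151 in the controls, 0.174 to 0.389 with shBAP1 #1 and 0.175 to 0.53 with shBAP1 #2.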
